A study of Mus musculus with 24 samples.

Results

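The Egr family was described in the hippocampus of wild-type (WT) mice and of mice with a kinase-dead MSK1 (MSK1 KD), by taking the lines of the gene symbols Egr1, Egr2, Egr3 and Egr4 from the table of raw counts of each library. These are 4 of the 49568 gene symbols in the tables, and all 4 were among the 18482 genes with enough counts to be tested. MSK1 KD mice are homozygous for a knock-in mutation that abolishes the kinase activity of MSK1 in every cell, so that the protein is present but inactive from conception, and they were bred as a line separate from the WT mice. Whole hippocampi came from male, experimentally naive mice of 12 weeks, which had lived in standard housing (SH) or, from birth, in an enriched environment (EE) of larger cages with a running wheel and objects that were changed. Polyadenylated RNA was sequenced as 24 libraries, 6 in each of WT SH, WT EE, KD SH and KD EE. Quality control had failed for 33B, an EE library of WT, and for 34B, one of KD, and without them there were 6 WT SH, 5 WT EE, 6 KD SH and 5 KD EE libraries. The study itself compared 17 of these 22. It had set aside 31B and 35A of WT EE, 12 of WT SH, 9 of KD EE and 2 of KD SH because they correlated poorly with their own groups.

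The 22 libraries held 8911999 to 56752074 counts on genes (median 30265877), and 3 counts, taken as the floor of detection, stood for 0.0529 to 0.337 CPM (counts scaled to 1000000 counts a library). Every member was above this floor in every library, with at least 18 counts for Egr2 and at least 222 for Egr4. The hippocampal identity of the libraries was visible in their markers, with Prox1 of dentate granule cells between 81.8 and 136 CPM and Wfs1 of CA1 pyramidal cells between 137 and 223 CPM. Some libraries stood apart. Library 12 (WT SH) held 36.3 CPM of the thalamic gene Tcf7l2, against at most 5.46 CPM elsewhere, and library 14 (WT SH) held 9.11 CPM of the striatal gene Drd2, against at most 4.68 CPM. The summed level of 12 choroid plexus genes ran from 44.5 to 5856 CPM. Among the 17 libraries of the study it was at least 1047 CPM in EE (library 7) and at most 813 CPM in SH (library 11). Choroid plexus level and housing thus cannot be told apart in those 17. Lastly, 5 of the 10 EE libraries have a code that ends in a letter (31B, 33A and 35A in WT, 32A and 36A in KD), whereas the codes of the other 5 (16 and 17 in WT, 7, 8 and 9 in KD) and of all 12 SH libraries do not. The labels do not say what the letter stands for.

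Egr proteins are zinc-finger transcription factors that bind GC-rich sites, and their genes are immediate early genes, transcribed within minutes of synaptic activity without new protein synthesis. In neurons, calcium and growth factor signals reach them through the ERK pathway. ERK phosphorylates ternary complex factors such as Elk1, which sit with serum response factor (SRF) on CArG boxes, and it activates MSK1, which phosphorylates CREB at cAMP response elements (CREs) and histone H3 at the promoters of such genes. Egr1 (Zif268, Krox24) is needed for lasting synaptic potentiation and memory, Egr2 (Krox20) for Schwann cell myelin and hindbrain patterning, Egr3 for muscle spindles, and Egr4 (NGFI-C) for male fertility. Nab1 and Nab2 are corepressors that bind Egr1, Egr2 and Egr3, and Nab2 is itself an Egr target.

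Promoter windows from RefSeq (GRCm38.p6, 250 bases before to 50 after a start site) were at hand for Egr2, with 5 start sites, and for Egr4, with 1. The bases before the start site are shown for Egr4 and for the Egr2 start site that GENCODE gives to its main transcript, because these are the members whose levels did not overlap between both kinds of EE library below. Capitals mark the CArG box (CC, bases that are each A or T, then GG, of the length of CCATATATGG, on both strands) and the CRE core (TGACG, or CGTCA on the other strand).

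Egr4, chr6:85513590-85513839, minus strand: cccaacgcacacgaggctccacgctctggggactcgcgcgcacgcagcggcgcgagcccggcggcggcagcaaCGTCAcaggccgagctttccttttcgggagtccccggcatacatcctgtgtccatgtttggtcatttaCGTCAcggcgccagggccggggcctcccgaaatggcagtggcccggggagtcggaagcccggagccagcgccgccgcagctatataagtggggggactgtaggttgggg

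Egr2, chr10:67537619-67537868, plus strand: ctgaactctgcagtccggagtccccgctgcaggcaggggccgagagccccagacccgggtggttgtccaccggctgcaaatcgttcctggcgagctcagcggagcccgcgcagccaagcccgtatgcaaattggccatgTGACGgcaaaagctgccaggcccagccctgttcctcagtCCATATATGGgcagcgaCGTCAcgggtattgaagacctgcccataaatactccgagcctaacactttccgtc

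With the start site as position 0, the Egr2 window held a CArG box from -72 to -63, between CRE cores that begin at -111 and -55. A CArG box was present in 535 of all 32851 promoter windows (1.63%), and in 4 of the 5 Egr2 windows, 3 of which overlap and share the same box. The Egr4 window held CRE cores that begin at -177 and -109 and no CArG box, and a CRE core was present in 20.8% of all windows. Neither the full CRE (TGACGTCA, 1.79% of windows) nor the Egr motif itself (GCGNGGGCG, 5.55%) was found in any of these 6 windows, with both strands searched. A full CRE contains the core, so these counts overlap.

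In GENCODE M21 on GRCm38, Egr1 lies on chromosome 18, at 34859823 to 34864984 on the plus strand, Egr2 on chromosome 10, at 67535475 to 67542188 on the plus strand, Egr3 on chromosome 14, at 70077203 to 70082614 on the plus strand, and Egr4 on chromosome 6, at 85511121 to 85513589 on the minus strand. No other annotated gene overlaps any of the 4, so that reads without strand information could not be shared with an antisense gene at these places.

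Divided by the length of the exons, Egr1 was the most abundant member, at 39.6 ± 9.06 CPM per kilobase (SD over the 22 libraries), followed by Egr4 at 15.1 ± 3.51, Egr3 at 11.6 ± 2.36 and Egr2 at 0.999 ± 0.511 CPM per kilobase. The lowest Egr1 library (24.8) was above the highest Egr4 library (21.7). Egr4 and Egr3 overlapped in their ranges, but Egr4 was above Egr3 in 21 of 22 libraries. Egr2 never came above 2.17 CPM per kilobase, below the lowest Egr3 library at 7.49.

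The members varied more from library to library than most genes of like level. From the lowest to the highest library, Egr1 ran from 111 CPM (library 17, WT EE) to 259 CPM (35A, WT EE), a ratio of 2.33. Egr2 ran from 1.12 CPM (17, WT EE) to 7.37 CPM (32A, KD EE), a ratio of 6.57. Both extremes of Egr1 therefore lay inside 1 group. The coefficient of variation was 22.9% for Egr1, 51.1% for Egr2, 20.3% for Egr3 and 23.3% for Egr4. Among genes whose mean CPM was within 0.5 of a log2 unit of the member's, the median was 8.02% around Egr1, 19.7% around Egr2, 8.54% around Egr3 and 9.16% around Egr4, and 96.5% to 99.5% of those genes varied less than the member.

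**Figure D1:**
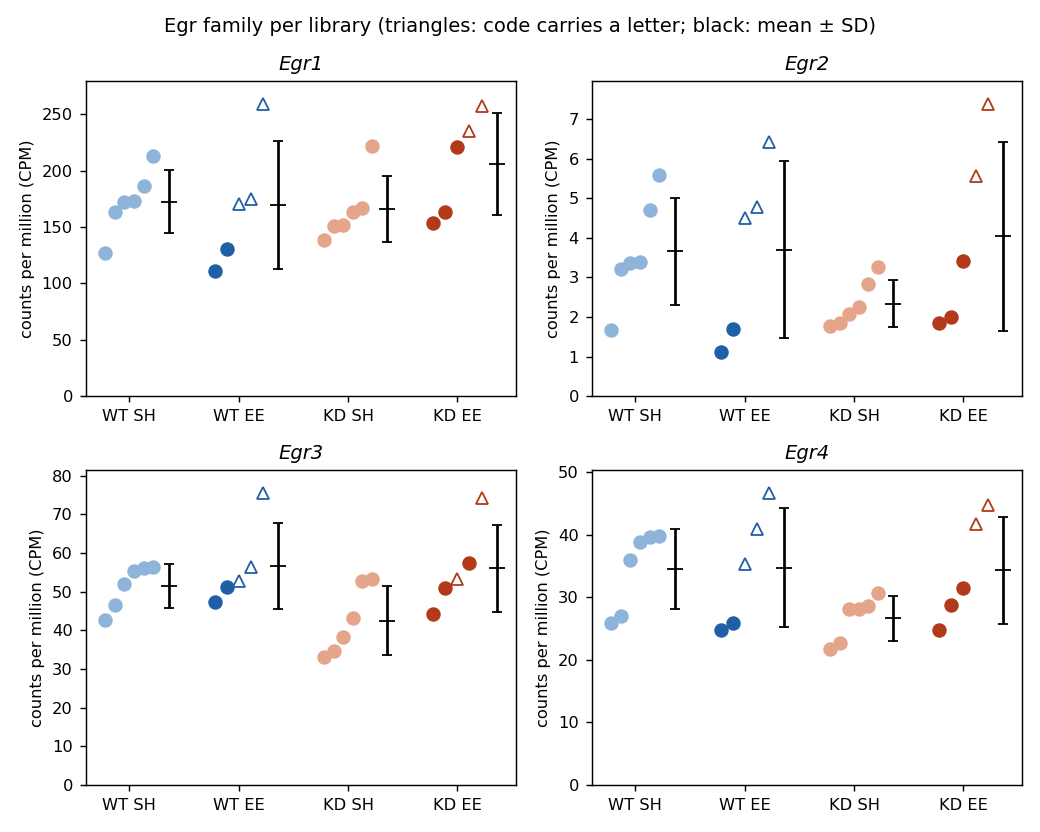
Level of each Egr member in CPM (y axis from 0) in each library of the 4 groups (x axis). Points are libraries, triangles those whose code carries a letter, and black marks the mean ± SD; in both EE groups the triangles of Egr2 and Egr4 lie above all circles.

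Whether enrichment changed the family in WT mice was asked by comparing WT EE with WT SH, and none of the 4 members was called. Calls here mean that the quasi-likelihood test of edgeR, with Benjamini-Hochberg adjustment over all genes, gave at most 0.05 and that the log2 fold change was at least 0.38 in size, or 1.3-fold. Egr1 was at 131, 111, 175, 170.3 and 259 CPM in WT EE libraries 16, 17, 31B, 33A and 35A, and in WT SH it had a lowest value of 127, a median of 173 and a highest of 213 CPM. The WT EE libraries thus reached both below and above the whole WT SH range. The log2 fold change of Egr1 was -0.03 (SE 0.17, edgeR adjusted p = 0.99). Egr2, in the same order, was at 1.69, 1.12, 4.50, 4.78 and 6.43 CPM, around a WT SH median of 3.38 CPM (1.67 to 5.59), with a log2 fold change of 0.04 (SE 0.36). Egr3 was at 47.3, 51.3, 56.4, 52.7 and 75.5 CPM against a median of 53.7 CPM (42.8 to 56.3), and Egr4 at 24.7, 25.8, 35.3, 40.9 and 46.6 CPM against 37.4 CPM (25.9 to 39.7). Their log2 fold changes were 0.14 (SE 0.14) and 0.01 (SE 0.16). All 4 members overlapped between the groups, with exact permutation p, two-sided, between 0.38 and 0.97. No gene at all was called here, which is 0% of 18482, while 1598 genes and none of the members had an unadjusted edgeR p under 0.05, and DESeq2 called 23 genes and no member.

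The mean of WT EE joins libraries that differ. Over the 17 libraries whose code carries no letter, where WT EE consists of libraries 16 and 17, the log2 fold change of Egr1 was -0.50 (SE 0.17), that of Egr2 -1.37 (SE 0.36), that of Egr4 -0.44 (SE 0.16) and that of Egr3 -0.06 (SE 0.16). The lowest edgeR adjusted p among them was 0.055, for Egr2, so that no member was called there either, although 1.64% of all genes were. Egr1, Egr2 and Egr4 had an unadjusted edgeR p under 0.05, as had 2720 of 19153 genes. Over the 17 libraries that the study used, where WT EE consists of 16, 17 and 33A, the values were -0.40 for Egr1, -0.62 for Egr2, -0.08 for Egr3 and -0.24 for Egr4, again with no member called (edgeR adjusted p of 0.17 or more) although 3.55% of all genes were. The direction of Egr2, Egr3 and Egr4 was therefore opposite to that of the edgeR values over the 22 libraries. As a difference of mean log2 CPM over the 22, however, Egr2 (-0.16) and Egr4 (-0.01) were already negative and Egr3 was positive (0.12). The sign for Egr2 and Egr4 over the 22 libraries thus depended on the measure.

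In MSK1 KD mice all 4 members, and 50.9% of all genes, had higher means in EE than in SH, and no member was called. Egr3 was at 57.5, 44.1, 51.0, 53.4 and 74.4 CPM in KD EE libraries 7, 8, 9, 32A and 36A, against a lowest value of 33.01, a median of 40.7 and a highest of 53.2 CPM in KD SH. Its log2 fold change was 0.40 (SE 0.14), the lowest unadjusted p of the family in this comparison, 0.0080, and the edgeR adjusted p was 0.46. Egr1 was at 221, 163, 154, 257 and 235 CPM against a median of 158 CPM (139 to 222), and Egr2 at 3.40, 1.84, 2.00, 7.37 and 5.56 CPM against 2.17 CPM (1.78 to 3.26). Both lettered libraries, 32A and 36A, were above every KD SH library for Egr1, Egr2 and Egr4, and library 7 was the highest of the rest. The share of all genes for which 32A and 36A lie above every KD SH library was not counted. Egr4 was at 31.5, 28.7, 24.7, 44.7 and 41.7 CPM against 28.0 CPM (21.7 to 30.7). The log2 fold changes were 0.32 (SE 0.17) for Egr1, 0.87 (SE 0.38) for Egr2 and 0.38 (SE 0.17) for Egr4. The exact permutation p ran from 0.052 for Egr3 to 0.17 for Egr2. Again 0% of genes were called by edgeR, against 1779 with an unadjusted p under 0.05, among them 3 members, and DESeq2 called 4 genes and no member. Without the lettered libraries the log2 fold changes in KD were 0.12 for Egr1, 0.06 for Egr2, 0.25 for Egr3 and 0.10 for Egr4. With the study's 17 libraries they were 0.36, 0.95, 0.40 and 0.48, none called (edgeR adjusted p of 0.17 or more) where 1.74% of all genes were.

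In standard housing, where no code carries a letter, the question was whether the kinase activity of MSK1 is needed for resting levels of the family. All 4 members, and 47.8% of all genes, had higher means in WT SH than in KD SH, and no member was called. Egr4 was between 25.9 and 39.7 CPM (median 37.4) in WT SH and between 21.7 and 30.7 CPM (median 28.0) in KD SH, so that 4 of 6 WT libraries were above every KD library. Its log2 fold change was 0.37 (SE 0.16, edgeR adjusted p = 0.81), and its exact permutation p, two-sided and not adjusted for the 32 such tests made over the 22 and over the study's 17 libraries, was 0.032. The other log2 fold changes were 0.68 (SE 0.36) for Egr2, 0.27 (SE 0.13) for Egr3 and 0.06 (SE 0.16) for Egr1, with exact permutation p of 0.076, 0.061 and 0.69. Of all genes 0% were called, 1065 genes and 2 members (Egr3 and Egr4) had an unadjusted edgeR p under 0.05, and DESeq2 called 2 genes and no member. The lowest WT SH library for Egr1, Egr2, Egr3 and Egr4 was in each case library 12, the one with the high Tcf7l2, whose part in these values was not tested. Without it the log2 fold change was 0.83 for Egr2 and 0.44 for Egr4.

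In enriched housing the genotypes were compared in the same way, and no member was called over the 22 libraries. The means of Egr1 were 169 ± 56.8 CPM (SD, n = 5) in WT EE and 206 ± 45.4 CPM (SD, n = 5) in KD EE, a log2 fold change of -0.28 (SE 0.18, edgeR adjusted p = 1.0; exact permutation p = 0.26). For Egr2, Egr3 and Egr4 it was -0.15 (SE 0.38), 0.01 (SE 0.14) and 0.01 (SE 0.17). These are 0% of genes called, 482 genes and no member with an unadjusted p under 0.05, and 0 genes called by DESeq2. Egr1 was the member that 1 test called under another choice of libraries. In the study's 17 libraries, 1 of 3 WT EE and 2 of 4 KD EE libraries carry a letter. Over these 17 its log2 fold change was -0.67 (SE 0.15, edgeR adjusted p = 0.30), with 1 gene called (0.00535%), whereas DESeq2 on the same libraries gave -0.68 (SE 0.15, adjusted p = 0.026) and called Egr1 among 18 genes (0.0998%). The exact permutation p over these 7 EE libraries was 0.11, in a design that cannot go below 0.057. Keeping libraries for their correlation within groups, as the study did for these 17, can lower the spread that such p-values rest on. Within the lettered libraries of the 22 the log2 fold change of Egr1 was -0.29 (SE 0.20) and within the unlettered ones -0.57 (SE 0.20). As the mean of both it was -0.43 (SE 0.14, unadjusted p = 0.0056, edgeR adjusted p = 1.0, 0% of genes called, and 576 genes with an unadjusted p under 0.05). Among the lettered libraries the levels of Egr1 overlapped, with WT library 35A (259 CPM) above both KD libraries (257 and 235 CPM).

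The difference between the housing effects of the genotypes was tested as the interaction, WT EE minus WT SH minus KD EE plus KD SH. It was negative for all 4 members, where 51.2% of all genes had a positive value. The members were at -0.34 (SE 0.24) for Egr1, -0.83 (SE 0.52) for Egr2, -0.26 (SE 0.19) for Egr3 and -0.36 (SE 0.23) for Egr4. None was called (edgeR adjusted p = 1.0 for each), and neither was any other gene (0%), with 377 genes and no member at an unadjusted p under 0.05 and 0 genes called by DESeq2. Over the study's 17 libraries the interaction was -0.76 (SE 0.19) for Egr1, -1.57 (SE 0.52) for Egr2, -0.48 (SE 0.20) for Egr3 and -0.72 (SE 0.23) for Egr4, each with an unadjusted edgeR p under 0.05, as had 1031 of 18701 genes, and an adjusted p of 0.84 or more, with 0% of genes called. The study's choice of these 17 by their correlation within groups can make such p-values too small. Averaged over genotypes, EE exceeded SH by 0.15 (SE 0.12) for Egr1, 0.45 (SE 0.26) for Egr2, 0.27 (SE 0.10) for Egr3 and 0.19 (SE 0.12) for Egr4 on the log2 scale. No member was among the 27 genes called there (0.146%), the lowest edgeR adjusted p of the family being 0.16, for Egr3. Averaged over housings, WT differed from KD by -0.11 (SE 0.12) for Egr1, 0.27 (SE 0.26) for Egr2, 0.14 (SE 0.10) for Egr3 and 0.19 (SE 0.12) for Egr4, with 0% of genes called, 1120 genes and no member at an unadjusted p under 0.05, and 0 genes called by DESeq2.

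**Figure D2:**
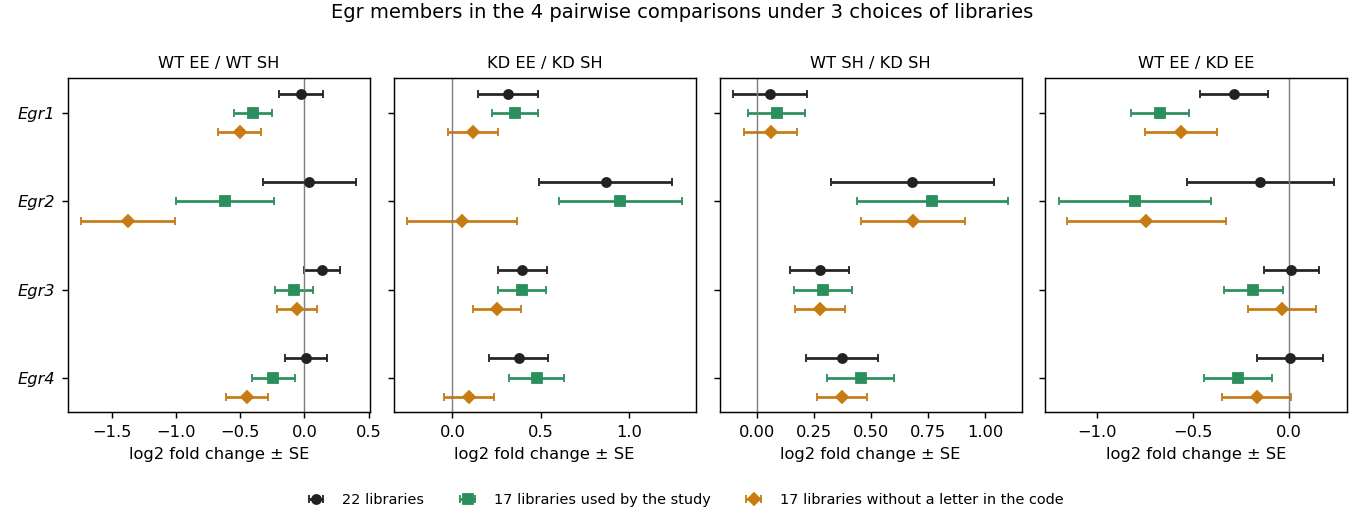
Log2 fold change ± SE (x axis, edgeR) of the 4 Egr members (y axis) in the 4 pairwise comparisons, 1 a panel, over the 22 libraries, the 17 that the study used and the 17 without a letter in their code. In WT EE over WT SH the value of Egr2 moves from 0.04 to -1.37 between the first and the last choice, while in WT SH over KD SH the choices lie within 1 SE of each other.

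The split of the EE libraries was then measured directly. A comparison without the lettered libraries had been planned, and the contrast of lettered with unlettered EE libraries, within genotype and averaged over the genotypes, was added after the values had been seen. Egr1, Egr2 and Egr4 were higher in the lettered libraries and Egr3 was not called. Egr2 was at 4.50, 4.78 and 6.43 CPM in the lettered WT libraries and at 7.37 and 5.56 CPM in the lettered KD libraries, against 1.69 and 1.12 CPM and 3.40, 1.84 and 2.00 CPM in the unlettered ones. No lettered EE library overlapped with an unlettered one. The log2 fold change was 1.67 (SE 0.26, edgeR adjusted p = 0.0092). Egr4 did not overlap either, at 35.3 to 46.6 CPM against 24.7 to 31.5 CPM, with a log2 fold change of 0.65 (SE 0.12, edgeR adjusted p = 0.021). Egr1 was at 219 ± 43.6 CPM (SD, n = 5) against 156 ± 41.4 CPM (SD, n = 5), and overlapped because library 7 (KD, 221 CPM) was above 31B and 33A (WT). Its log2 fold change was 0.60 (SE 0.14, edgeR adjusted p = 0.040). Egr3 was at 62.5 ± 11.5 CPM against 50.2 ± 4.99 CPM (SD, n = 5 each), a log2 fold change of 0.33 (SE 0.14, edgeR adjusted p = 0.23).

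Thus 3 of the 4 members were called where 96 of 18482 genes were (0.519%), 72 of them higher in the lettered libraries. DESeq2 called the same members among 216 genes (1.42%). Within WT every lettered library was above every unlettered one for all 4 members, and within KD for Egr1, Egr2 and Egr4. The share of all genes that separate in these ways, or as Egr2 and Egr4 did over all EE libraries, was not counted. Library 33B (WT EE), which also has a letter but failed quality control, was left out. By total counts it was below library 16 for Egr1 (120 against 133 CPM) and Egr3 (37.4 against 48.2 CPM), and nearly equal to it for Egr4 (25.12 against 25.15 CPM). For Egr2 it was above library 16, at 4.77 CPM. The calls rested on few libraries. Without library 17 (WT EE, the lowest in Egr1 and Egr2) 1 gene was called and no member, with log2 fold changes of 0.55, 1.55 and 0.67 for Egr1, Egr2 and Egr4. Without 36A (KD EE) 3 genes were called and Egr2 alone of the family, as also without 35A (WT EE, 11 genes) and over the 17 libraries of the study (10 genes, 0.0535%). Without 8, 9, 16 or 32A, Egr1 alone of the 3 was no longer called. With 1 library left out the log2 fold change ran from 0.49 to 0.69 for Egr1, 1.55 to 1.84 for Egr2 and 0.60 to 0.70 for Egr4, and over the study's 17 libraries it was 0.43, 1.57 and 0.61.

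Against the 12 SH libraries the lettered EE libraries were higher in all 4 members, by 0.40 (SE 0.11) for Egr1, 1.005 (SE 0.19) for Egr2, 0.42 (SE 0.11) for Egr3 and 0.47 (SE 0.10) for Egr4 on the log2 scale, averaged over genotypes. Egr2, Egr3 and Egr4 were called (edgeR adjusted p of 0.0090, 0.040 and 0.015) and Egr1 was not (0.054), where 1.50% of all genes were called. Without 36A, Egr2 alone was called (1.10), with Egr3 at 0.29 and Egr4 at 0.50, and without 35A Egr3 was not called (0.33), whereas Egr1 was called without 7, 31B or 33A (0.40 to 0.46). Over the study's 17 libraries Egr2 (0.84) and Egr4 (0.44) were called and Egr3 (0.27) and Egr1 (0.22) were not, where 3.59% of all genes were. All 5 lettered libraries were above the SH median for each of the 4 members, and the share of all genes for which this holds was not counted. The unlettered EE libraries differed from SH by -0.20 (SE 0.12) for Egr1, -0.66 (SE 0.23) for Egr2, 0.09 (SE 0.11) for Egr3 and -0.18 (SE 0.11) for Egr4, with no member among the 6 genes called (0.0325%), 1 member, Egr2, at an unadjusted p under 0.05, as 2595 of all genes were (14%), and no member among the 92 genes that DESeq2 called. As no SH library carries a letter, what the letter stands for and enrichment cannot be told apart in the comparison of lettered EE with SH.

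Markers of other cell types also differed between lettered EE and SH. All 12 choroid plexus genes had higher means in the lettered EE libraries, with a median log2 fold change of 2.45, and 2 were called higher (Kl and Prlr). Their summed level was 63.7 to 5856 CPM (median 3150) against 44.5 to 2976 CPM (median 92.0) in SH. With the score of this list as a covariate all 4 Egr members were called, at 0.55 for Egr1, 1.28 for Egr2, 0.52 for Egr3 and 0.50 for Egr4. Called lower were 2 of 5 ependymal genes (Ccdc153 and Tmem212), 1 of 5 microglial genes (P2ry12) and 1 of 5 dentate gyrus markers (Tdo2). Higher means in lettered EE were found for 3 of 5 ependymal genes, 1 of 5 microglial genes and 3 of 5 dentate gyrus markers. The median log2 fold changes of these lists were 0.34, -0.24 and 0.03. The summed levels, lettered EE against SH, were 16.9 to 46.2 against 20.5 to 42.1 CPM for ependyma, 186 to 204 against 202 to 238 CPM for microglia and 289 to 354 against 187 to 371 CPM for the dentate gyrus, and the part of these lists in the Egr values was not tested. These marker genes were named after their values had been seen.

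Other measures were set side by side for the lettered and unlettered EE libraries, and their ranges overlapped in each case. Their part in the Egr difference between these libraries was not tested unless a value is given. The lettered EE libraries were deeper, with 30079793 to 56752074 counts on genes against 8911999 to 30556209. Mitochondrial genes took 3.83% to 4.36% of their counts against 3.94% to 5.10%, and 15.05% to 18.6% of their fragments fell outside single genes against 14.05% to 15.8%. The summed level of the 12 choroid plexus genes ranged from 63.7 to 5856 CPM against 218 to 5352 CPM, and with the score of this list as a covariate the log2 fold changes were 0.56 for Egr1, 1.60 for Egr2 and 0.64 for Egr4, all called. The 5 blood genes summed to 29.5 to 56.5 CPM against 51.2 to 128 CPM, 1 of them, Hbb-bs, being called lower in the lettered libraries. The 5 neuron markers summed to 4919 to 5510 CPM against 5137 to 5635 CPM and the 5 dentate gyrus markers to 289 to 354 CPM against 260 to 316 CPM, with none called. In whole tissue, fewer cells of a type and less RNA in each cell cannot be told apart.

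**Figure D3:**
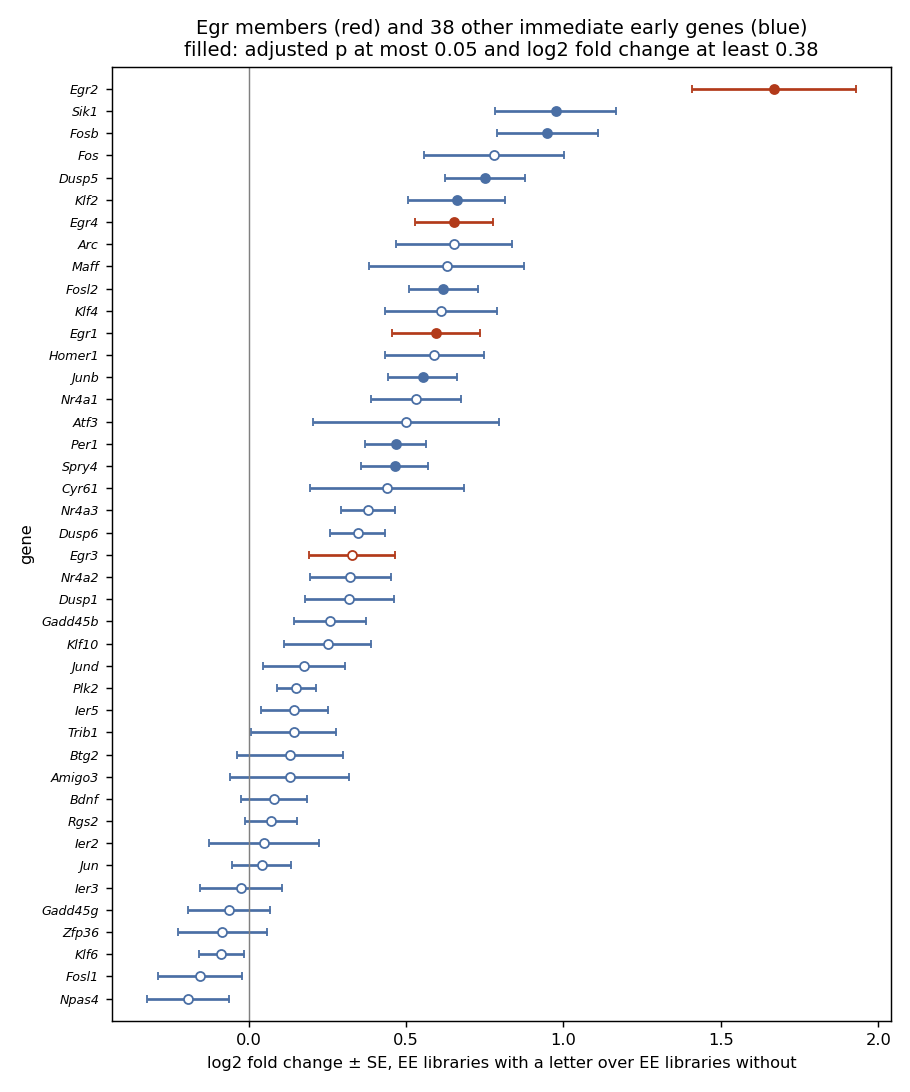
Log2 fold change ± SE (x axis, edgeR) between EE libraries whose code carries a letter (n = 5) and EE libraries whose code does not (n = 5), for the 4 Egr members in red and 38 other immediate early genes in blue (y axis). Filled points passed the call rule; Egr2, at 1.67, is the highest of the 42 genes.

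Genes that act before, beside and after the Egr proteins were counted from lists. Of 9 upstream kinases (ERK, MEK, MSK and RSK genes) none was called between WT EE and WT SH, where Rps6ka5, which codes for MSK1, had a log2 fold change of -0.22 (SE 0.09) and Mapk3, which codes for ERK1, one of -0.19 (SE 0.07), both with an edgeR adjusted p of 0.45. None was called between WT EE and KD EE, and none between lettered and unlettered EE libraries, where the level of Rps6ka5 was 22.2 ± 2.06 against 22.8 ± 3.80 CPM (SD, n = 5 each). Of 14 SRF, TCF and CREB factors, 13 had higher means in the lettered libraries and 1 was called, Crebbp, the coactivator CBP, at 0.38 (SE 0.09, edgeR adjusted p = 0.038). This gene is outside the rule for named genes and was chosen after its values were seen. The median log2 fold change of this list was 0.18, and that of all genes -0.01.

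Of 38 other immediate early genes, 32 had higher means in the lettered than in the unlettered EE libraries and 8 were called, all higher, with a median log2 fold change of 0.32. Of all genes tested, 47.8% had higher means there and 0.519% were called. Among them, and chosen after their values were seen because they were the highest and the closest to the family, Sik1, a CREB-regulated kinase, was at 19.5 ± 3.39 against 10.1 ± 2.31 CPM, and Fosb, a partner of Jun proteins, at 20.01 ± 3.88 against 10.8 ± 2.497 CPM (SD, n = 5 each). Fosl2, also of the Fos family, had a log2 fold change of 0.62 (SE 0.11, edgeR adjusted p = 0.016) and Spry4, a feedback inhibitor of the ERK pathway, one of 0.46 (SE 0.11, edgeR adjusted p = 0.038). Arc, a synaptic protein that is a reported Egr target, was at 217 ± 46.3 against 152 ± 49.4 CPM and was not called (log2 fold change 0.65, SE 0.18, edgeR adjusted p = 0.078). Npas4, an early gene induced selectively by calcium, had a value of -0.19 (SE 0.13). The same list showed no call between WT EE and WT SH, where Atf3 (0.67, SE 0.28), Npas4 (-0.30, SE 0.13) and Fosl2 (0.35, SE 0.15) had the lowest p, or between WT EE and KD EE, where Trib1 (-0.31, SE 0.13), Arc (-0.39, SE 0.22) and Spry4 (-0.24, SE 0.14) had (edgeR adjusted p of 0.48 or more in all).

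Downstream of the family, of 9 reported Egr targets none was called between lettered and unlettered EE libraries, with a median log2 fold change of 0.09, and none between WT EE and WT SH or between WT EE and KD EE. Cdk5r1, the activator p35 of the kinase Cdk5, was at 0.16 (SE 0.06) in the first of these and at -0.13 (SE 0.06) between WT EE and WT SH. The synaptic vesicle gene Syn1 was at 0.00 (SE 0.07) and -0.12 (SE 0.07), and Psmb9, an immunoproteasome subunit that Egr1 is reported to repress, at -0.21 (SE 0.22) and 0.41 (SE 0.21). Neither corepressor was called in either, with Nab1 at -0.10 (SE 0.09) and -0.05 (SE 0.09) and Nab2 at 0.10 (SE 0.11) and 0.02 (SE 0.10). Over the 22 libraries Nab1 ran from 24.0 to 34.98 CPM and Nab2 from 17.6 to 29.9 CPM. Of the 4 peripheral myelin genes that Egr2 drives in Schwann cells, 3 had enough counts to be tested and none was called in any of these comparisons, with log2 fold changes between lettered and unlettered libraries of -0.18 (SE 0.10) for Pmp22, -0.16 (SE 0.11) for Gjb1 and 0.07 (SE 0.17) for Prx.

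Whether the members rise and fall together was asked over the 22 libraries, from log2 CPM with a prior count of 2. Egr1 and Egr2 had a Pearson r of 0.86 and a Spearman rho of 0.90, Egr2 and Egr4 an r of 0.83 and a rho of 0.83, and Egr3 and Egr4 an r of 0.72 and a rho of 0.76. The permutation p of these r, after adjustment over the 6 pairs, were 6e-05, 6e-05 and 0.00018. For Egr1 with Egr2 the raw p was 1e-05, the smallest that 100000 resamples can give. Egr1 with Egr4 followed at an r of 0.62 and a rho of 0.67 (adjusted permutation p of 0.0034 and 0.0014), then Egr2 with Egr3 at 0.51 and 0.66 (0.018 and 0.0014) and Egr1 with Egr3 at 0.47 and 0.62 (0.026 and 0.0023). Without the 2 libraries farthest from the median of the first gene, r was 0.81 for Egr1 with Egr2, 0.82 for Egr2 with Egr4, 0.72 for Egr3 with Egr4 and 0.60 for Egr2 with Egr3. It was lower for Egr1 with Egr4, at 0.46, and for Egr1 with Egr3, at 0.35, both without 35A and 32A.

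As deviations from the group means, r was 0.91 for Egr1 with Egr2, 0.81 for Egr2 with Egr4 and 0.64 for Egr3 with Egr4. Over the 17 unlettered libraries the same pairs had an r of 0.82, 0.68 and 0.61, but Egr1 with Egr4 had 0.36, Egr2 with Egr3 0.23 and Egr1 with Egr3 0.15, with unadjusted permutation p of 0.15, 0.37 and 0.56. The rho of these looser pairs was higher, at 0.47, 0.51 and 0.42, with unadjusted permutation p of 0.059, 0.039 and 0.093. The 5 lettered libraries are too few for a value of their own. The looser link of Egr1 and Egr3 could be seen in single libraries. Library 5 (KD SH) had the highest Egr1 of its group (222 CPM) with the lowest Egr4 (21.7 CPM) and nearly the lowest Egr3 (34.6 CPM), and library 17 (WT EE) had the lowest Egr1 of all (111 CPM) with an Egr3 of 51.3 CPM, close to the median of 52.4 CPM. Of the 22 libraries, library 5 also had the lowest summed markers of dentate gyrus (187 CPM), CA1 (515 CPM) and CA3 and CA2 (149 CPM). Its summed oligodendrocyte markers were the highest (3597 CPM). The part of these in its Egr values was not tested.

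**Figure D4:**
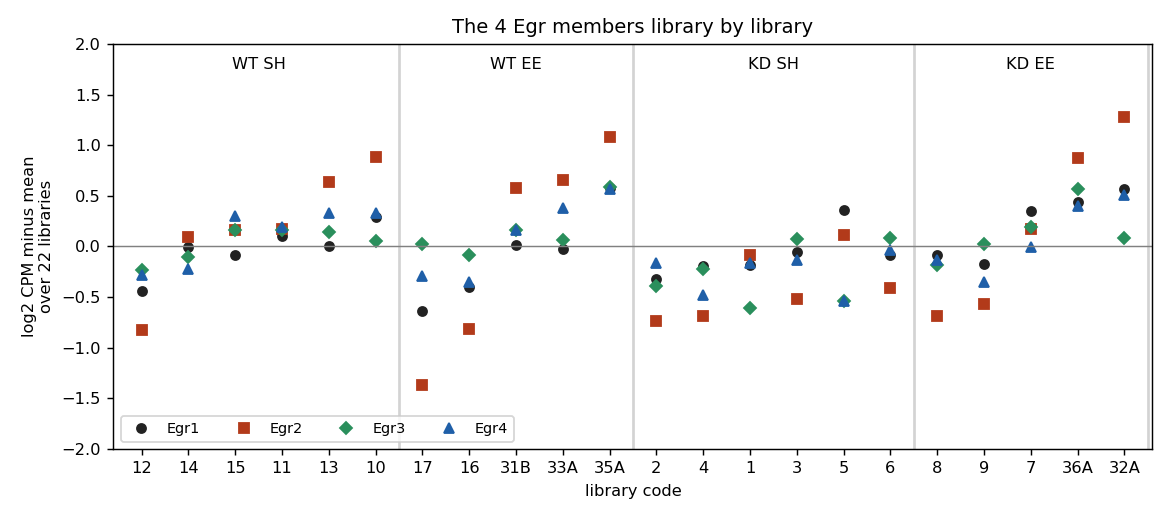
Log2 CPM of each Egr member minus its mean over the 22 libraries (y axis) in each library (x axis), by group, with lettered libraries last in each EE group. All 4 members lie above 0 in the lettered libraries 31B, 35A, 32A and 36A and in WT SH libraries 10 and 11, and Egr2 has the widest range.

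The genes whose pattern over the 22 libraries was most like a member were listed, 5 for each, among 15017 genes with a mean of at least 1 CPM. For Egr4 the first was Junb (r 0.91), a partner of Fos proteins, followed by Midn, Fbxo46, Ccnd2 and Brd1 (0.85 to 0.91). For Egr2 they were Klhl42, Fos, 1810013L24Rik, Tsc22d2 and Skil (0.89 to 0.91), and Fos is the defining immediate early gene. For Egr1 they were 9430020K01Rik, Plekha8, Tmed8, Zfp451 and Frmd6 (0.87 to 0.89), and for Egr3 Kcnn2, Gse1, Bahd1, Parp1 and Kdm5c (0.88 to 0.92). Over the unlettered libraries alone the r of these 20 pairs was between 0.73 and 0.92. This is no separate check, because the pairs were picked for their r over libraries that include these. As a description over libraries that share depth and code, the median r with 36 other immediate early genes was 0.51 for Egr1, 0.58 for Egr2, 0.45 for Egr3 and 0.54 for Egr4, and the median over all genes compared was between -0.03 and 0.00.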

How the data were processed

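Reads were trimmed by the authors with Skewer, aligned to GRCm38 with STAR 2.5 and counted by gene symbol with HTSeq, ignoring strand. The deposited tables hold these raw counts, 1 table a library, and were used as deposited. A further table of the authors, of counts scaled for the libraries they used, was not used here. Libraries were grouped by genotype and housing from their labels, and no 2 libraries held identical counts. The labels do not say that each library is 1 animal, so that p-values measure the spread between libraries.

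All genes were fitted in R 4.3.3 with edgeR 4.0.16 (filterByExpr by group, TMM scaling, a mean for each of the 4 groups, quasi-likelihood F tests, Benjamini-Hochberg adjustment over 18482 genes). SE is the absolute log2 fold change divided by the square root of F. CPM were scaled by TMM. The fit was tested on simulated data. DESeq2 1.42.0, other scalings, no filter, the 17 and the 24 libraries, the unlettered libraries, only the groups compared, a choroid plexus score as a covariate (limma 3.58.1 being loaded by edgeR) and each library left out in turn were alternatives. Fits with the lettered EE libraries as groups of their own were added after the data had been seen. Permutation tests were made with scipy 1.17.1 in Python 3.11.15, two-sided, and figures with matplotlib 3.10.9.

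The members and gene lists were chosen with earlier results of these data known. Named genes were the members, Nab1, Nab2, Rps6ka5, the 5 genes most correlated with each member, and from each list the 3 lowest p in WT EE against WT SH and in WT EE against KD EE. Lists were also counted for ependyma, meninges, endothelium, microglia, oligodendrocytes, astrocytes, CA1, CA3 and CA2, thalamus and striatum, and no gene of these was called between lettered and unlettered EE libraries. The floor of 3 counts covers counting error only. Exon lengths and positions are from GENCODE M21 and promoters from RefSeq.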

Additional observations from a re-analysis of the deposited data

Results flagged for a closer look

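In KD SH, Egr1 in library 5 was at 221.7 CPM, and its gap to the nearest of the other 5 libraries was 0.656 of the range of the group, more than the 0.625 set for 6 libraries (Dixon's test). The same library had the lowest Egr4 of its group. It also had the lowest summed dentate gyrus, CA1, and CA3 and CA2 markers of the 22 libraries, whose part in its Egr1 value was not tested. Of 16 groups of values examined for the 4 members this was the single one, and chance flags about 1 in 20. Without it the log2 fold change of Egr1 between KD EE and KD SH was 0.42 in place of 0.32, and no call changed.

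EE libraries with a letter in their code differed from EE libraries without one in Egr1 (by 0.60 on the log2 scale), Egr2 (1.67) and Egr4 (0.65), by the contrast of these libraries in edgeR. No SH library carries a letter, so an effect of enrichment within lettered libraries could not be measured. The contrast was chosen after the values had been seen.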

How the results depend on the processing

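Over the 7 comparisons of the design, the alternatives called a member once (of all fits, those without 1 library included), Egr1 in WT EE against KD EE by DESeq2 on the study's 17 libraries (-0.68, 1 member in place of 0). In WT EE against WT SH several choices turned the sign of the fitted values, although Egr2 and Egr4 were already negative over the 22 libraries as differences of mean log2 CPM. Over the study's 17 libraries Egr2, Egr3 and Egr4 were at -0.62, -0.080 and -0.24 (DESeq2 -0.67, -0.085 and -0.25) and over the unlettered libraries at -1.37, -0.060 and -0.44, and with the choroid plexus score Egr1 was at 0.082. In WT EE against KD EE, Egr3 and Egr4 were at -0.18 and -0.26 over the 17 (DESeq2 -0.19 and -0.27), -0.036 and -0.17 over the unlettered libraries and -0.025 and -0.023 with the score, and Egr3 was at -0.0023 over all 24. EE against SH over both genotypes turned for Egr1 over the 17 (-0.021; DESeq2 -0.024), and for Egr1, Egr2 and Egr4 over the unlettered libraries (-0.19, -0.66 and -0.17). WT against KD over both housings turned for Egr2 over the 17 (-0.016; DESeq2 -0.053) and the unlettered libraries (-0.029). Between unlettered WT EE and KD EE, Egr3 was at 0.062 with the score.

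With 1 library left out at a time, WT EE against WT SH ranged from -0.24 to 0.090 for Egr1, -0.26 to 0.25 for Egr2 and -0.12 to 0.11 for Egr4, lowest without 35A, and Egr1 and Egr2 were highest without 17, Egr4 without 16. KD EE against KD SH ranged from 0.51 (without 32A) to 1.07 (without 8) for Egr2. WT SH against KD SH ranged from -0.012 to 0.16 for Egr1. The interaction was largest without 35A, at -0.55, -1.13, -0.39 and -0.50 for Egr1 to Egr4, and smallest without 17 for Egr1 (-0.22), 36A for Egr3 (-0.13) and 32A for Egr2 and Egr4 (-0.48 and -0.24), with no call. WT EE against KD EE ranged from -0.49 (without 35A) to -0.16 (without 17) for Egr1, and from -0.45 to 0.20 for Egr2, -0.11 to 0.14 for Egr3 and -0.13 to 0.13 for Egr4, lowest without 35A and highest without 32A or, for Egr3, 36A. Among lettered libraries it ranged from -0.26 to 0.20 for Egr3 and -0.18 to 0.023 for Egr4, among unlettered ones from -0.14 to 0.060 for Egr3, and as the mean of both from -0.15 to 0.083 for Egr3.

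Between lettered and unlettered EE libraries, Egr1 and Egr4 were no longer called over the study's 17 libraries (0.43 and 0.61, 1 member in place of 3). Without 1 library the range was 0.49 to 0.69 for Egr1, 1.55 to 1.84 for Egr2 and 0.60 to 0.70 for Egr4, with 0 to 3 members called, and against SH the lettered libraries had 1 to 4 members called (2 over the study's 17, where Egr3 was at 0.27). Of the correlations, Egr1 with Egr3 and Egr2 with Egr3 had no p of r under 0.05 over the study's 17 libraries (r 0.27 and 0.35), nor had these and Egr1 with Egr4 over the unlettered ones (0.15, 0.23 and 0.36). Both of these sets also hold fewer libraries, and the causes were not tested. Of 489 values under alternatives other than leaving out a library, 449 kept their direction and their side of the threshold, and of 1070 without 1 library, 1017 did. No paired analysis was possible because the groups share no replicate numbers. Depth limits Egr2 most, with 18 counts in its lowest library.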

Other observations

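Library 33B (WT EE), which failed quality control, was at 120.0 CPM for Egr1, 4.77 CPM for Egr2, 37.4 CPM for Egr3 and 25.1 CPM for Egr4, scaled by its total of counts. Library 34B (KD EE) held 2 counts of Egr1, 1 of Egr4 and none of Egr2 or Egr3, at or under the floor of 3 counts, so that no level could be given.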
